A study of Homo sapiens with 4 samples.

Results

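Transcripts of vimentin and of 9 proteins of the contractile actin cytoskeleton were followed through single cells of an epithelial patch: VIM, TPM1, TPM2, TPM4, FLNA, ACTN1, MYL9, CALD1, TAGLN and MYLK. The genes were taken by name, and all 10 were found among the 19577 genes with a row in any plate. Single MCF10A cells, an untransformed human breast epithelial line carrying an H2B-GFP marker, had been grown for 6 days as a dense circular patch on fibronectin, in medium with EGF, hydrocortisone, cholera toxin and insulin. All plates share this line and this medium, and the experiments have no other control than each other. In the low-resolution experiment, concentric rings 1000 to 1500 μm wide were phototagged with photoactivatable dyes, whereas in the high-resolution experiment the bands at the edge were 250 μm wide. Cells of 3 regions were sorted into 384-well plates and profiled by SORT-seq, in which unique molecular identifiers (UMIs) are counted. Each experiment had 2 plates, and the plate is the replicate. The region from which each well was sorted was not analysed here, so every value is for a whole plate.

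Epithelial cells that undergo an epithelial-to-mesenchymal transition (EMT) lose E-cadherin (CDH1), lay down fibronectin (FN1) and gain vimentin, the intermediate filament protein of mesenchymal cells. Their actin is rebuilt from a cortical belt into stress fibers, bundles of actin and myosin II that pull on the matrix. Tropomyosins wind along these filaments and set which other proteins bind, filamin A and α-actinin cross-link them, caldesmon and transgelin stabilize them, and the myosin light chain and its kinase switch contraction on.

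The plates held between 11709628 and 14992348 transcripts, spike-ins included. Of 1536 wells, 1146 passed a filter of 2000 to 9000 features and under 40% mitochondrial counts (291 and 271 cells at low resolution, 291 and 293 at high resolution). The median depth of the cells kept was 30118 to 40893 transcripts. No 2 wells of different plates held the same values, although the plates share all 384 well numbers by design. By the names of their files, the plate of low-resolution replicate 1 was sequenced on a flow cell of its own and the other 3 plates shared one. Keratin 5 led the basal epithelial markers in every plate, at 17.6 to 23.1 counts per 10000, and TP63 was the lowest of them, at 0.00739 to 0.0105. Fibroblast markers summed to at most 0.129 per 10000 and smooth muscle or myoepithelial markers to at most 0.119 (6 of 7 listed genes found for each), with DES at 0 in 2 plates and LMOD1 at 0 in 3. Endothelial markers summed to at most 0.214, nearly all of it PECAM1, and immune markers to at most 0.0872, nearly all of it CD68. Of the members, TAGLN, MYL9 and MYLK lay as low as these sums. Among luminal markers KRT8 led, at 4.58 to 5.23 per 10000, while ESR1 stood at 0.00350 to 0.0152 and PGR at most at 0.000875.

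Levels are given as counts per 10000 counts of a plate. A UMI marks 1 molecule whatever the length of its transcript, so they were not divided by length. Below, the plates are given in the order low-resolution replicate 1 and 2, high-resolution replicate 1 and 2. The members fell into separate bands of abundance. TPM4 stood alone at the top, at 4.63, 4.19, 4.85 and 5.19 (4.71 ± 0.419, SD, n = 4 plates). ACTN1 (3.04 ± 0.983), TPM2 (2.41 ± 0.623) and TPM1 (2.26 ± 0.211) followed, and then FLNA (1.49 ± 0.451), CALD1 (1.45 ± 0.110) and VIM (1.09 ± 0.408). The ranges of neighbors in this order overlapped, apart from TPM4 with ACTN1 and TPM1 with FLNA. TAGLN (0.146 ± 0.0389), MYL9 (0.103 ± 0.0285) and MYLK (0.0704 ± 0.0112) formed the lowest band, whose ranges lay below that of VIM and overlapped from one to the next. A cell thinned to 10000 UMIs held a median of 5 to 6 of the 10 members and 12 to 19.5 of their UMIs. FN1 reached 6.28 ± 1.85 and CDH1 0.585 ± 0.165.

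**Figure D1:**
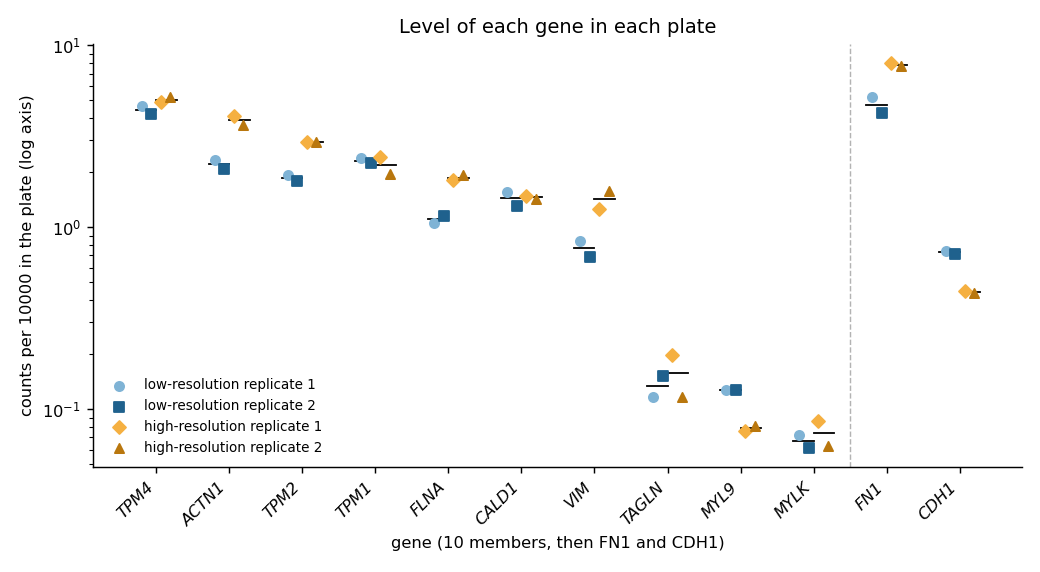
Counts per 10000 (log axis) of the 10 members, FN1 and CDH1, where each symbol is 1 plate and each black line the mean of the 2 plates of an experiment. VIM, ACTN1, FLNA and TPM2 lie higher in both high-resolution plates, and MYL9 and CDH1 lie lower.

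VIM (chr10:17228259-17237593, GRCh38, plus strand) was spread over the cells more unevenly than the other members. At equal depth, 20.6%, 22.8%, 37.7% and 36.8% of cells had a UMI of VIM, and before thinning 33.3%, 32.5%, 58.1% and 57.0% had one. At equal depth, cells with at least 5 UMIs of VIM made up 4.88%, 4.48%, 10.2% and 13.7% of the same plates. The variance of its thinned counts was 4.03 to 7.14 times their mean in the 4 plates, against 1.05 to 2.91 for the other 9 members. TPM4 by contrast was found in 95.8% to 98.3% of thinned cells. At this depth VIM was thus found in a minority of cells and TPM4 in nearly all of them.

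To ask how the members differed between the experiments, the counts of each plate were summed and compared with edgeR's quasi-likelihood test with Benjamini-Hochberg adjustment over 12437 genes. Of the 10 members, 4 were higher in the high-resolution plates (background 6.26% of all genes tested) and 1 was lower (background 6.18%). These backgrounds were not matched for level. The median log2 fold change of the members was 0.24, against -0.02 over all genes tested. In sums over a plate, fewer cells of a kind and less RNA per cell cannot be told apart. The bands that were sorted differ between the experiments by design, so the experiment and the part of the patch cannot be told apart either.

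VIM was among the members that rose. Its level was 0.841, 0.688, 1.26 and 1.59 per 10000, so that the 2 experiments did not overlap. Of all genes tested, 28.3% were likewise higher in the high-resolution plates without overlap. The log2 fold change of VIM was 0.94 (SE 0.134, edgeR adjusted p = 0.00117).

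Among the cross-linkers, ACTN1 (chr14:68874143-68979440, minus strand), the α-actinin of stress fibers and focal adhesions, stood at 2.34 and 2.09 at low resolution and 4.11 and 3.65 at high resolution. It rose by a log2 fold change of 0.84 (SE 0.111, edgeR adjusted p = 0.000699). FLNA (chrX:154348524-154374638, minus strand), which joins actin filaments into a network and ties them to integrins, stood at 1.05 and 1.16 against 1.81 and 1.94 (log2 fold change 0.80, SE 0.116, edgeR adjusted p = 0.00128). In both genes the high-resolution plates lay above the low-resolution plates without overlap, as they did in 28.3% of all genes tested.

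The tropomyosins differed from one another. TPM2 (chr9:35681992-35690121, minus strand) rose from 1.93 and 1.81 to 2.94 and 2.95, a log2 fold change of 0.69 (SE 0.104, edgeR adjusted p = 0.00154). TPM4 (chr19:16067021-16103005, plus strand) had a log2 fold change of 0.22 (SE 0.103) and did not pass the test (edgeR adjusted p = 0.179). Its high-resolution plates were higher without overlap, as in 28.3% of all genes tested. TPM1 (chr15:63042632-63071915, plus strand), at 2.40 and 2.25 against 2.43 and 1.97, had a log2 fold change of -0.04 (edgeR adjusted p = 0.854) with overlapping plates. The tropomyosin that is no member, TPM3, rose by 0.43 (SE 0.103, edgeR adjusted p = 0.0193). Of all tropomyosin counts, TPM2 made up 16.8%, 17.0%, 21.9% and 22.1%, and TPM1 20.8%, 21.3%, 18.2% and 14.7%.

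MYL9 (chr20:36541484-36551447, plus strand), a regulatory light chain of myosin II, was the member that fell. It stood at 0.127 and 0.128 at low resolution and 0.0761 and 0.0805 at high resolution, a log2 fold change of -0.67 (SE 0.190, edgeR adjusted p = 0.0383). This call did not hold: the adjusted p was 0.150 with DESeq2, 0.222 in thinned cells, 0.0562 without the mitochondrial limit, and 0.0752 to 0.148 when any 1 of the 4 plates was left out (low-resolution replicate 1 or 2, high-resolution replicate 1 or 2). The fold change stayed between -0.70 and -0.57 in all of these.

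The remaining members did not pass the test. CALD1 (chr7:134744252-134970728, plus strand) stood at 1.57, 1.31, 1.49 and 1.44 in the 4 plates, with a log2 fold change of 0.06. TAGLN (chr11:117199321-117204782, plus strand) ranged from 0.116 to 0.199, and its log2 fold change of 0.26 had an SE of 0.248. MYLK (chr3:123610049-123884331, minus strand), the kinase that phosphorylates the light chain, ranged from 0.0614 to 0.0857 (log2 fold change 0.19, SE 0.235). FN1 rose by 0.77 (SE 0.112, edgeR adjusted p = 0.00127) and CDH1 fell by 0.68 on the log2 scale (SE 0.116, edgeR adjusted p = 0.00321), so VIM, ACTN1, FLNA and TPM2 changed in the same direction as FN1. These 4 calls held without low-resolution replicate 1, that is within 1 flow cell.

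**Figure D2:**
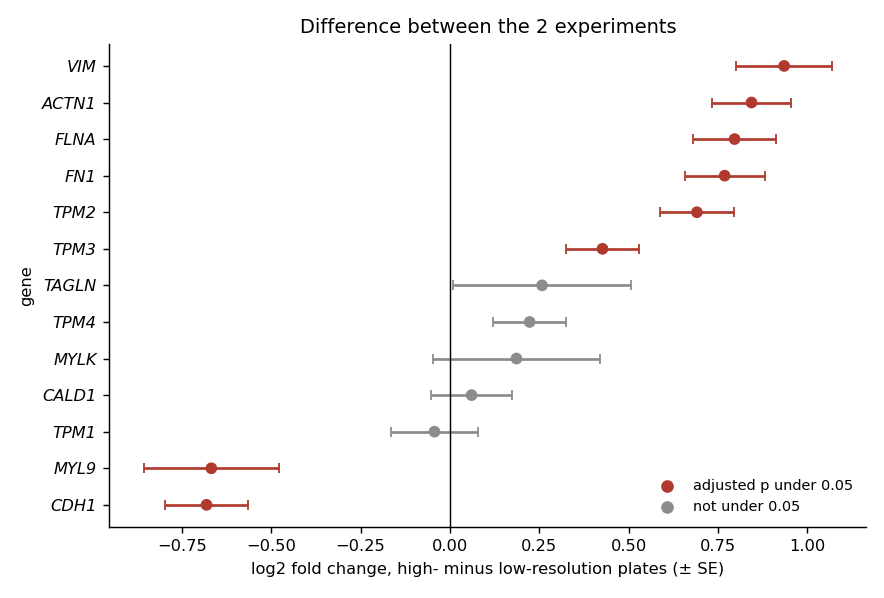
Log2 fold change of high-resolution over low-resolution plates (points, with bars of 1 SE; 2 plates each) for the members, TPM3, FN1 and CDH1, in red where the edgeR adjusted p was under 0.05. VIM, ACTN1, FLNA, TPM2, TPM3 and FN1 lie to the right of 0, while MYL9 and CDH1 lie to the left.

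Other genes of the actin and myosin machinery were read from a list of 51, of which 46 could be tested. Here 18 rose, 1 fell and the others did not pass the test (edgeR). Of all genes tested, not matched for level, 6.26% rose and 6.18% fell. The median log2 fold change of the genes on the list was 0.17, against -0.02 over all genes. The largest rise among them was that of TGFB1I1, a focal adhesion protein, at 1.41 (SE 0.152, edgeR adjusted p = 0.000236). FHL1 rose by 1.07 and the focal adhesion and stress fiber proteins PDLIM7, ZYX and CSRP1 by 0.80, 0.66 and 0.59. Further actin cross-linkers and binding proteins rose with them, among them SMTN by 0.66, SVIL by 0.63, CNN2 by 0.52 and TAGLN2 by 0.38. ACTB, which encodes β-actin, rose by 0.51, and the regulators of actin assembly PFN1, CFL1 and CAPZB rose by 0.71, 0.52 and 0.36. The nonmuscle myosin II heavy chains did not move as one, since MYH10 and MYH9 rose by 0.45 and 0.36 whereas MYH14 fell by 0.94 on the log2 scale (SE 0.264, edgeR adjusted p = 0.0374). TPM3 and RHOC, the latter a small GTPase that drives contractility, also rose (0.43 and 0.40).

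To describe co-expression, Spearman's rho was computed across the cells of each plate from log-normalized counts. Cells of a plate share a library and a range of depths, so these values are descriptions of each plate, with no p. The median rho over the 45 member pairs was 0.171, 0.168, 0.253 and 0.205 in the 4 plates (0.199 ± 0.0396, SD, n = 4 plates), whereas over pairs of the 8032 genes found in 20% or more of the cells of each plate the median was 0.0178 to 0.0223. In 40 of the 45 pairs rho was positive in all 4 plates, as it was in 23.1% of all pairs of those genes. In cells thinned to equal depth the median was 0.143 (0.000951 to 0.00148 over all genes), and 34 pairs were positive in all 4 plates (9.55% of all pairs).

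The strongest pair was TPM2 with FLNA, at 0.522, 0.598, 0.690 and 0.654. FLNA with ACTN1 followed at 0.501, 0.554, 0.634 and 0.650, and VIM with TPM2 at 0.388, 0.482, 0.588 and 0.627. In 7 pairs rho reached 0.3 in all 4 plates, namely the 6 pairs among VIM, TPM2, FLNA and ACTN1, and TPM4 with FLNA, where 0.151% of all gene pairs did so. In thinned cells 3 pairs reached it, namely those among TPM2, FLNA and ACTN1 (0.0189% of all pairs). The mean rho of a member with the mean z-score of the other 9 in thinned cells was 0.449 for FLNA, 0.441 for TPM2, 0.402 for ACTN1, 0.381 for TPM4 and 0.374 for VIM. CALD1 reached 0.286, TAGLN 0.238, MYL9 0.186 and MYLK 0.162. TPM1 had the lowest, at 0.225, 0.0344, 0.209 and -0.0257, and its highest mean rho with any member, before thinning, was that with CALD1 (0.215).

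**Figure D3:**
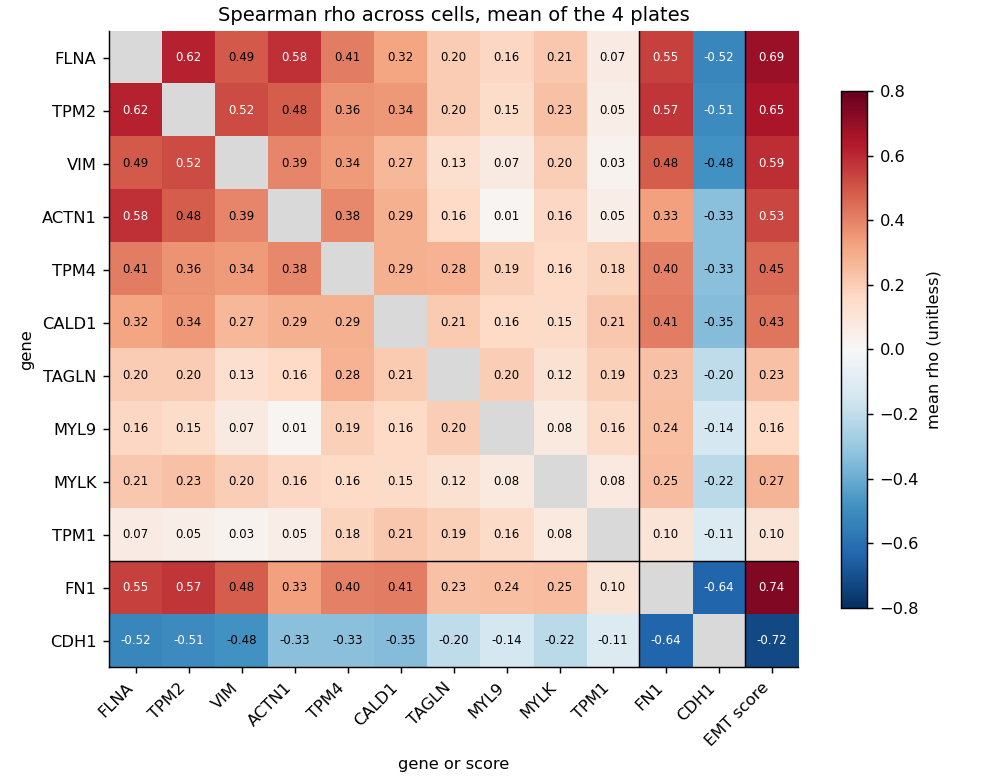
Spearman's rho across cells, averaged over the 4 plates, between the members, FN1, CDH1 and an EMT score computed without any of these genes (color scale from -0.8 to 0.8; diagonal in gray). FLNA, TPM2, VIM and ACTN1 form the block of high values at the top left, and TPM1 is near 0 with each of these 4.

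All 10 members had a positive mean rho with FN1 and a negative one with CDH1, with the same sign in each plate. Among all genes, 26.3% had a positive rho with FN1 in all 4 plates and 26% a negative one with CDH1. With FN1, the median over the members was 0.362, 0.301, 0.396 and 0.384, against -0.0179 to 0.0114 over all genes. TPM2 led at 0.470, 0.529, 0.685 and 0.614, followed by FLNA with a mean of 0.550 and VIM with 0.482, and TPM1 was last with 0.105. With CDH1 the median was -0.306, -0.260, -0.399 and -0.298, against -0.0104 to 0.00986 over all genes. FLNA, TPM2 and VIM were again first, with means of -0.520, -0.510 and -0.483. FN1 and CDH1 themselves had a rho of -0.635 with each other. In thinned cells the medians of the members were 0.269 with FN1 and -0.172 with CDH1. There 9 members kept their sign in each plate with both genes (21.5% of all genes with FN1 and 20.4% with CDH1). TPM1 did not, with a rho of -0.140, 0.0300, -0.0529 and 0.00710 with CDH1 and of -0.00673 with FN1 in low-resolution replicate 2.

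Cells with a UMI of VIM seldom had one of CDH1 at equal depth. Of thinned cells with a UMI of VIM, 15.3% (9 of 59), 14.8% (9 of 61), 10.3% (11 of 107) and 4.67% (5 of 107) had a UMI of CDH1 in the 4 plates. The exact binomial 95% intervals, which cover counting error only, ran from 7.22% to 27.0% in the first plate and from 1.53% to 10.6% in the last. Among the other cells of these plates the share was 49.1%, 54.6%, 41.8% and 47.8%. FN1 showed the opposite, with a UMI in 81.4%, 86.9%, 93.5% and 94.4% of cells with VIM and in 47.8%, 43.0%, 63.8% and 56.5% of the others.

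The EMT score of a cell was the score of 98 mesenchymal genes minus that of 63 epithelial genes, from which the members, FN1 and CDH1 had been left out. A gene was counted as following a partner when its rho had a size of at least 0.3 and the same sign in all 4 plates. Only genes found in 20% or more of the cells of each plate were counted. MYL9 (19.2% of cells of high-resolution replicate 1) and MYLK (13.7% to 21.0%) fell short of this, leaving 8 members. Of these, 6 followed the EMT score upward (ACTN1, CALD1, FLNA, TPM2, TPM4 and VIM; background 2.51%), 4 followed FN1 (FLNA, TPM2, TPM4 and VIM; background 1.87%) and 3 followed CDH1 downward (FLNA, TPM2 and VIM; background 1.22%). None went the other way, against backgrounds of 2.74% below the EMT score, 1.63% below FN1 and 1.66% with CDH1. In thinned cells these counts were 4, 3 and 0, and the background shrank with them, to 88, 59 and 13 genes. TPM1 and TAGLN followed none of the partners. The backgrounds given here and for gene pairs were not matched for level. By level, the 6 members that followed the EMT score lay between the 93.7th and the 98.8th percentile of all genes, and TPM1 lay at the 97.4th. TAGLN lay lower, at the 66.6th, with a UMI in 21.3% to 29.2% of the cells of a plate. Of 42 further contractile genes measured, 9 followed the EMT score, among them ACTB, MYH9, ZYX and TLN1, which encodes the integrin-binding protein talin.

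FLNA had the highest mean rho with the EMT score (0.633, 0.707, 0.739 and 0.676), and TPM2 came next (0.586, 0.582, 0.744 and 0.705). VIM had 0.448, 0.571, 0.630 and 0.705. ACTN1 reached a mean of 0.534, TPM4 0.451, CALD1 0.426, MYLK 0.274, TAGLN 0.233, MYL9 0.160 and TPM1 0.103. FLNA thus had a higher rho with the score than VIM in 3 of 4 plates and a lower one in high-resolution replicate 2.

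When the cells of each plate were divided into 3 equal parts by their EMT score, VIM differed most between the highest and the lowest part. Its level rose from 0.0768 to 2.34, from 0.0345 to 2.08, from 0.0742 to 2.80 and from 0.0721 to 4.10 per 10000 in the 4 plates, which is 30.5 to 60.2 times, with 13 to 33 counts behind each low value. FLNA was 3.28 to 8.12 times higher in the highest part, TPM2 2.82 to 3.37 times, ACTN1 2.00 to 3.39 times, CALD1 1.91 to 1.99 times and TPM4 1.69 to 1.96 times. MYLK was 3.96 to 9.54 times higher, but from only 6 to 12 counts in the lowest part. MYL9 was 1.42 to 4.90 times and TAGLN 1.45 to 13.5 times higher, from 9 to 48 and from 14 to 61 counts in the lowest part, and 31 of the 61 TAGLN counts of low-resolution replicate 2 came from 1 cell. TPM1 moved least, by 1.09 to 1.23 times. Over the same cells FN1 was 9.28 to 37.3 times higher. The smallest of these ratios is from high-resolution replicate 2, where 393 of the 704 FN1 counts in the lowest part came from 1 cell. The level of CDH1 in the highest part was 0.0235 to 0.0666 times that in the lowest.

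**Figure D4:**
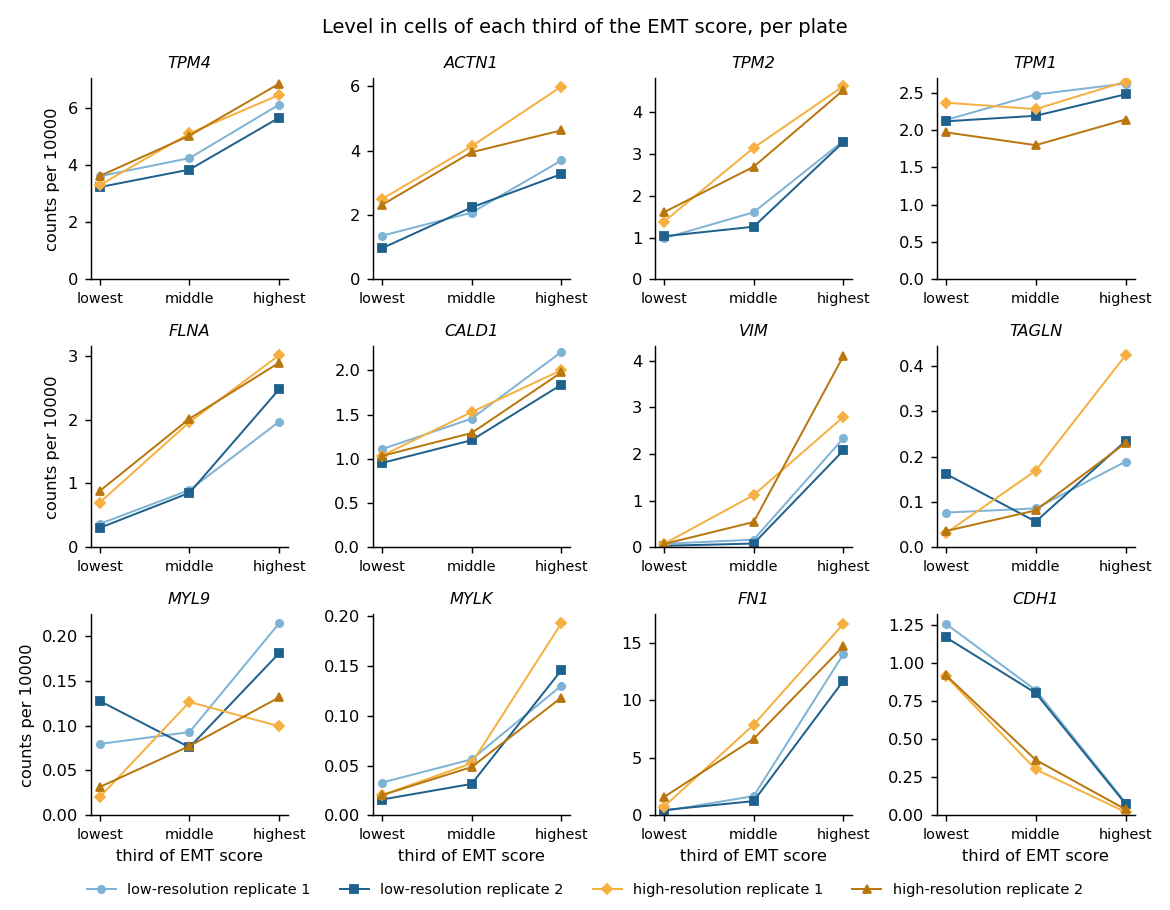
Counts per 10000 of each gene in the cells with the lowest, middle and highest EMT scores of a plate (lines join the parts of 1 plate; each panel has its own axis from 0). VIM is near 0 in the lowest part of every plate, CALD1 rises about equally in all 4, and TPM1 stays almost level.

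Within the tropomyosins the mix shifted along the score. TPM2 made up 11.3%, 12.7%, 14.4% and 16.4% of tropomyosin counts in the lowest part and 21.8%, 22.8%, 26.2% and 26.1% in the highest. TPM1 went the other way in every plate, from 24.6%, 26.1%, 24.7% and 20.1% to 17.3%, 17.2%, 15.0% and 12.4%. TPM4 kept the largest share throughout, between 34.4% and 41.6%. The level of TPM1 itself was 1.09 to 1.23 times higher in the highest part, and TPM2, TPM3 and TPM4 were higher there by more (1.46 to 1.72 times for TPM3).

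**Figure D5:**
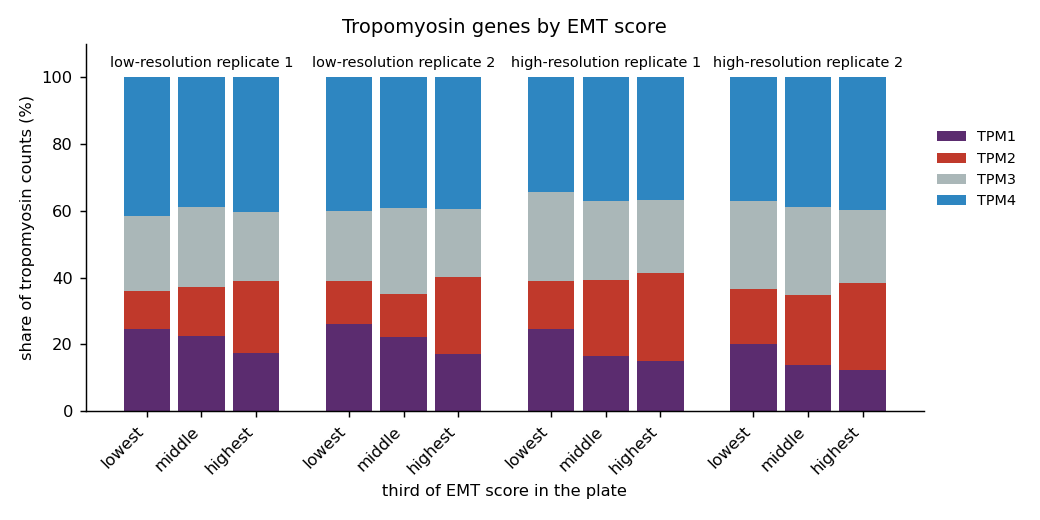
Share of the counts of the 4 tropomyosin genes (percent, bars sum to 100) in the cells with the lowest, middle and highest EMT scores of each plate. The share of TPM2 is larger and that of TPM1 smaller in the highest than in the lowest part in all 4 plates.

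The co-expression of the members was smaller among cells of like EMT score. With the score held constant (partial rho, chosen after seeing the data), the median over the 45 pairs was 0.0778, 0.0759, 0.0892 and 0.0941. Of the 45 pairs, 24 stayed positive in all 4 plates, and 19 in thinned cells. Partial rho was not computed over all gene pairs, so these medians and counts have no background to be read against. FLNA with ACTN1 had the highest value, with a mean of 0.352 (0.284 to 0.479), ahead of TPM2 with FLNA (0.304) and VIM with TPM2 (0.221). In thinned cells with the score held constant these pairs had means of 0.214, 0.160 and 0.106, and MYL9 with TAGLN (0.202), TPM4 with TAGLN (0.192) and TPM2 with ACTN1 (0.170) lay between the first and the second. Before thinning, ACTN1 with FN1 was then negative in 3 of 4 plates, at 0.0467, -0.104, -0.209 and -0.237.

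Both experiments were also divided at the same values of a score pooled over the 4 plates, a division chosen after seeing the data. This was another score than the one above, namely the mean z-score of the same mesenchymal genes minus that of the epithelial genes. The part with the highest scores then held 28.2% and 23.2% of low-resolution cells and 42.3% and 38.9% of high-resolution cells. Within each of the 3 parts, ACTN1 was still higher in the high-resolution plates without overlap, by 1.57, 1.55 and 1.37 times from the lowest part to the highest. FLNA was higher by 1.51, 1.43 and 1.19 times and TPM2 by 1.17, 1.39 and 1.27 times, also without overlap. VIM was higher without overlap in the highest part (1.27 times), while its plates overlapped in the lowest and middle parts. MYL9 was lower in all 3 parts without overlap, at 0.342, 0.637 and 0.556 times the low-resolution level, the first from only 7 and 10 counts in the high-resolution plates. Over whole plates, 28.3% of all genes tested were higher and 29% lower without overlap, so with 2 plates against 2 these separations are descriptions.

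Other properties of the cells moved with the members. The mean z-score of the 10 members had a rho of -0.477, -0.359, -0.486 and -0.554 with the mitochondrial share of a cell's counts, and that of the EMT score was -0.416, -0.292, -0.398 and -0.472. When mitochondrial counts were left out, the median rho of the members was 0.189 between pairs and 0.401 with the EMT score, against 0.199 and 0.435 with them. ACTN1 had a rho of 0.346, 0.424, 0.410 and 0.518 with a score of G2 and mitosis genes and FLNA one of 0.177 to 0.390, whereas MYL9 had -0.121 to -0.0838. After the S and G2M scores were regressed out, these medians were 0.220 and 0.418.

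Promoters of the members were searched for the binding elements of serum response factor (CArG box), TEAD factors (CATTCC), AP-1 (TGANTCA) and SNAIL or ZEB repressors (CACCTG), on both strands, from 250 bases before to 50 after each RefSeq start (GRCh38.p14). The table held 17 such windows for 8 members, and MYL9 and TAGLN were not matched. A CArG box was present in 4 of the 17 windows, 1 each of ACTN1, FLNA, TPM4 and MYLK, against 1.29% of 35116 promoters of the same length. ACTN1, FLNA and TPM4 followed the EMT score, but so did CALD1, TPM2 and VIM, which held no CArG box in their windows. MYLK was found in too few cells to be counted there, and a relation of the box to the score was not tested. CATTCC was present in 4 windows of ACTN1, CALD1 and MYLK (14% of all promoters), TGANTCA in 1 of CALD1 (7.71%) and CACCTG in none (20.6%). The matches did not overlap each other, and a match describes the letters in the window and not a bound site. The 4 stretches with a CArG box (capitals) are shown because the CArG box is present in 4 of the 17 windows and rare among all promoters. They are given 5′ to 3′ on the strand of the gene, at chr14:68977698-68977767 (minus), chrX:154374689-154374758 (minus), chr19:16067335-16067404 (plus) and chr3:123620603-123620672 (minus). The stretches of ACTN1, TPM4 and MYLK lie inside the gene coordinates given above, and that of FLNA lies outside. The other windows of ACTN1 and TPM4 held no CArG box.
ACTN1: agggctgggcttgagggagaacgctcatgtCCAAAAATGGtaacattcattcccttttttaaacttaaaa
FLNA: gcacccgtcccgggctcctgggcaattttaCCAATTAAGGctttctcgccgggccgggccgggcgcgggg
TPM4: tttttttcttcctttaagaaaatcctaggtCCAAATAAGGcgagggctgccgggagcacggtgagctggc
MYLK: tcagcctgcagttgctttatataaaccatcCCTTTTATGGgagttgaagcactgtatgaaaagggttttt
The box began 171, 94, 173 and 94 bases before the start in these 4 windows. VIM and TPM2, which had high rho with FLNA and ACTN1, held no CArG box in their windows.

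Genes most like the members were ranked by their mean rho with the mean z-score of the 10 members in thinned cells, over the 4 plates. Outside the members and the contractile list, MT2A, a metallothionein, was first (0.615, 0.618, 0.639 and 0.605). EMP3 (mean 0.594), FN1 (0.568) and SERPINE2 (0.562) were also among the highest. Among the lowest were FXYD3 (-0.622), a regulator of the sodium pump, HSD11B2 (-0.571), which inactivates cortisol, the basal keratin KRT15 (-0.558) and MAL2 (-0.556), a protein of apical transport. The median over all 8032 genes was 0.0117. Of the 42 contractile genes, 29 had a positive rho in all 4 plates, against 25.5% of all genes, and their median was 0.172. ZYX (0.488), ACTB (0.467), MYH9 (0.419) and CFL1 (0.415) were highest. TMOD3 (-0.114), which caps the slow-growing end of actin filaments, the phosphatase subunit PPP1CB (-0.0559), MKL2 (-0.0498), a coactivator of serum response factor, and PDLIM1 (-0.0467) were lowest.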

How the data were processed

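The values the authors deposited are expected counts per gene and well: distinct UMIs corrected for repeated draws among 4096 sequences, with no scaling. Submitters' processing notes name STAR 2.7.3a, hg38 and Seurat 4, while the annotation is not given in the sources used here. Correction could be undone to whole UMIs (within 4.5e-13), which were used for thinning. Spike-in rows counted toward features, the transcripts of a plate and the total behind the mitochondrial share, and were left out of all other values. Each cell was log-normalized to 10000 counts, and 16 cells under 10000 UMIs were left out of thinned values. For the EMT score, GSVA with a Gaussian kernel was rewritten and fitted once per experiment. Doublets were not called.

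Plates were compared with edgeR 4.0.16 (TMM, filterByExpr, quasi-likelihood) on rounded sums, with DESeq2 1.42.0 as an alternative. SEs were derived from the F statistic. On simulated data at a dispersion of 0.01 (0.0112 in the data), 95% of 200 genes changed by 1 on the log2 scale were recovered, with 3 false calls, and 25.5% at a dispersion of 0.05, also with 3. Simulated EMT gradients were recovered with a rho of 0.969 to 0.974, and 43.8% of 400 changed genes (85.9% of those above the median level) reached 0.3, with 0% of unchanged genes. Gene coordinates are from GENCODE. The alternatives were DESeq2, RLE size factors, no filter on low counts, the replicate number as a block, no mitochondrial limit, equal depth, mitochondrial counts left out, cell cycle scores regressed out, another score, other limits on rho and each plate left out.

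Members and lists were chosen with earlier results of these data known. Named are the members, FN1, CDH1, contractile genes called between experiments or among the 4 highest and 4 lowest by rho with the member score, and the 5 highest and 5 lowest other genes. Of the genes so selected, 3 are not reported here. TLN1 and KRT8 were named after their values were seen.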

Additional observations from a re-analysis of the deposited data

Results flagged for a closer look

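Of the 75 rho values looked at per plate (45 member pairs, and each member with FN1, CDH1 and the EMT score), 1 took opposite signs in the 2 experiments. ACTN1 with MYL9 had a rho of -0.0165 and -0.0493 at low resolution and of 0.0451 and 0.0778 at high resolution, a difference of 0.0944 between the means. All 4 values are near 0, and the difference was not tested.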

How the results depend on the processing

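VIM, ACTN1, FLNA and TPM2 remained past the threshold under all 11 alternatives, with log2 fold changes of 0.776 to 1.23, 0.756 to 0.943, 0.698 to 0.915 and 0.687 to 0.756. Between 982 and 1172 genes were called when 1 plate was left out (982 without low-resolution replicate 1, 987 without high-resolution replicate 2), against 1547 with all 4, and the lone plate of an arm was then assumed to vary like the other group. The members called came to 4 in each of these fits and 5 with all plates. The same-numbered plates did not deviate together (r = -0.0241 across genes). The labels do not say whether such plates share more than a number. This r cannot decide it, since low-resolution replicate 1 also had a flow cell of its own. With the replicate number as a block, 2023 genes and the same 5 members were called.

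Equal depth lowered every summary of rho: the median pairwise rho to 0.143, that with FN1 to 0.269, with CDH1 to -0.172 and with the EMT score to 0.291 (0.435 before). With the EMT score held constant, chosen after seeing the data, the first 3 were 0.0843, 0.0987 and -0.0523, and the pairwise value at equal depth was 0.0593. At a limit of 0.4, 2 members followed FN1 and 1 followed CDH1, at 0.2 the number following CDH1 was 6, and at equal depth it was 0. The background moved in the same direction. Of all genes, 58 followed FN1 upward and 32 followed CDH1 downward at 0.4, and 13 followed CDH1 downward at equal depth. At 0.2 more genes followed CDH1 downward than at 0.3. These changes in count are therefore not particular to the members. Leaving out 1 plate gave a pairwise median of 0.182 to 0.210, and 0.349 to 0.381 with FN1, -0.334 to -0.288 with CDH1 and 0.419 to 0.463 with the EMT score.

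Among members that did not pass the test, the sign turned in thinned cells for TPM1 (0.00402) and MYLK (-0.113). It also turned when 1 plate was left out, with a range of -0.205 to 0.117 for TPM1 (turned without high-resolution replicate 2), -0.023 to 0.160 for CALD1 (without low-resolution replicate 2), -0.169 to 0.613 for TAGLN and -0.0488 to 0.416 for MYLK (both without high-resolution replicate 1). The cause of these changes was not tested. The study calls the plates of an experiment biological replicates, while the labels do not say how they were grown apart. MYL9, TAGLN and MYLK had a UMI in at most 29.2% of the cells of a plate.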
